A study of Mus musculus with 12 samples.

Results

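The genes described here encode the contractile apparatus of smooth muscle and its regulators: Acta2, Actg2, Tagln, Myl9, Cnn1, Tpm1, Tpm2, Mylk, Cald1 and Lmod1. They are 10 of 18193 genes, read by 24 of the 34945 probe sets that the supplied annotation pairs with a single gene. The symbols were selected on the measured difference between adult astrocytes on APdE9 and on wild-type brain sections, in which several of these genes stood out. Values in adult cells are therefore given as a description, without a test, in both the section comparison and the age comparisons that reuse the same adult arrays. The tested comparison is that of neonatal cells, which the choice did not use, although earlier results of these data were known when it was made.

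The study measured total RNA of astrocytes on 12 one-colour arrays, 3 for each of 4 groups. All groups held eGFP-expressing astrocytes from hippocampus and cortex, recovered after 22 h on a brain section. The neonatal_WT and neonatal_APdE9 groups held cells from neonatal mice (3 d in one part of the labels and 2 days in another) on a wild-type or a transgenic section. The adult_WT and adult_APdE9 groups held cells from mice 6 to 8 weeks old on the same kinds of section. The APdE9 sections came from mice carrying a chimeric mouse/human APPSwe and a PS1-dE9 transgene, each under a mouse prion protein promoter, and the wild-type sections from C57Bl/6j littermates. The transgenes were thus in the section and not in the astrocytes. The labels give a pooling of samples (n = 3) ahead of RNA isolation, so p-values measure the spread between pools. The adult cultures went through Percoll and a DMEM/F12 medium that held G5 supplement. Those of neonatal mice had no Percoll step and a DMEM medium lacking the supplement, so medium, isolation and age cannot be told apart. Per the labels, 99.6% of cells stained for GFAP and less than 0.4% were microglia.

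In smooth muscle, force comes from myosin pulling on actin filaments, and it is switched on when myosin light chain kinase phosphorylates the regulatory light chain. Tropomyosin, calponin and caldesmon lie along the actin filament and restrain or stabilise it, and leiomodin starts new filaments. Many of these genes are driven by serum response factor (SRF) with its cofactors myocardin and the myocardin-related factors, which bind the CArG box, a run of A and T bases between a pair of C and a pair of G. Several of them, Acta2 and Tagln above all, are also made by myofibroblasts and have been found in cultured astrocytes.

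The bases before the start of transcription are shown for genes of contrasting behaviour on these arrays and of contrasting promoter: Myl9, which passed the test in neonatal cells, Acta2, Lmod1 and Cnn1. The sequences are RefSeq promoters on GRCm38.p6, 250 bases each, printed 5′ to 3′ on the strand of the gene: chr2:156775214-156775463 on the plus strand for Myl9, chr19:34255374-34255623 on the minus strand for Acta2, chr1:135324563-135324812 on the plus strand for Lmod1 and chr9:22099003-22099252 on the plus strand for Cnn1. Capitals mark CArG boxes and runs that differ from one at 1 base.
Myl9: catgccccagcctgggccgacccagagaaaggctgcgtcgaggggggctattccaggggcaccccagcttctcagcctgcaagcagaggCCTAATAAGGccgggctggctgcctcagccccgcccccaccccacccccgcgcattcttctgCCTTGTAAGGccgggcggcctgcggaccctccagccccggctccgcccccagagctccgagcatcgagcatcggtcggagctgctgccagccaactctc
Acta2: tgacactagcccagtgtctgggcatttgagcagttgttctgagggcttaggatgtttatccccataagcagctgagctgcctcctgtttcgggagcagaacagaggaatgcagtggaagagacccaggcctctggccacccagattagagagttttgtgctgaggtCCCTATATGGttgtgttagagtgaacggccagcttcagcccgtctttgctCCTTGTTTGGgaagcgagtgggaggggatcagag
Lmod1: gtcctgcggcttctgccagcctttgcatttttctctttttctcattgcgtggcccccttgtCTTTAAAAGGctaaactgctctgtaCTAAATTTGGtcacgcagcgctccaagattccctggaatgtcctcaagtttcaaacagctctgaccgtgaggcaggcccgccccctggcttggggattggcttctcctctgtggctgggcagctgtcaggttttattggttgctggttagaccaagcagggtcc
Cnn1: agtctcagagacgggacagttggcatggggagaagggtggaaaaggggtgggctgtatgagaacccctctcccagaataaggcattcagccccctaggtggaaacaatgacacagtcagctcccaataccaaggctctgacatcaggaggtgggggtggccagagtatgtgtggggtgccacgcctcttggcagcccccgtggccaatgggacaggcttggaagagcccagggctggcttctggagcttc

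Promoters were found for 8 of the 10 genes, Cald1 with a second start, which gave 9 promoters. Actg2 and Tagln had no promoter in the set used and were not searched. The motif reads the same on both strands, so one search covers both. A full CArG box lay in 1 of the 9, that of Myl9, as CCTAATAAGG from 161 to 152 bases before the start, against 1.47% of 32851 promoters of the same length. Runs 1 base away from the motif lay in 5 of the 9 promoters, against 17.5% of all. Acta2 had CCCTATATGG and CCTTGTTTGG, from 84 and 34 bases before the start, Lmod1 had CTTTAAAAGG and CTAAATTTGG, and Tpm1 had CCATATATAG and CCAAAAAAGT. Neither form was found in this window of Cnn1, Tpm2 or Mylk. A match in these letters is a description and not a measured binding site.

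The arrays report centred values: each probe set had a median of 0 over the 12 arrays on a scale taken as log2. A value of 1 is thus a doubling over that gene's own median array, and levels cannot be compared between genes or set against background. In these bulk samples, fewer cells of a type and less RNA per cell cannot be told apart.

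Averaged over the 10 genes, the 3 adult_WT arrays lay highest, between 1.16 and 1.38. The neonatal_WT arrays followed, between 0.25 and 0.44, then the neonatal_APdE9 arrays between -0.21 and -0.14, and the adult_APdE9 arrays lay lowest, between -0.39 and -0.35. No group overlapped the next in this order.

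**Figure D1:**
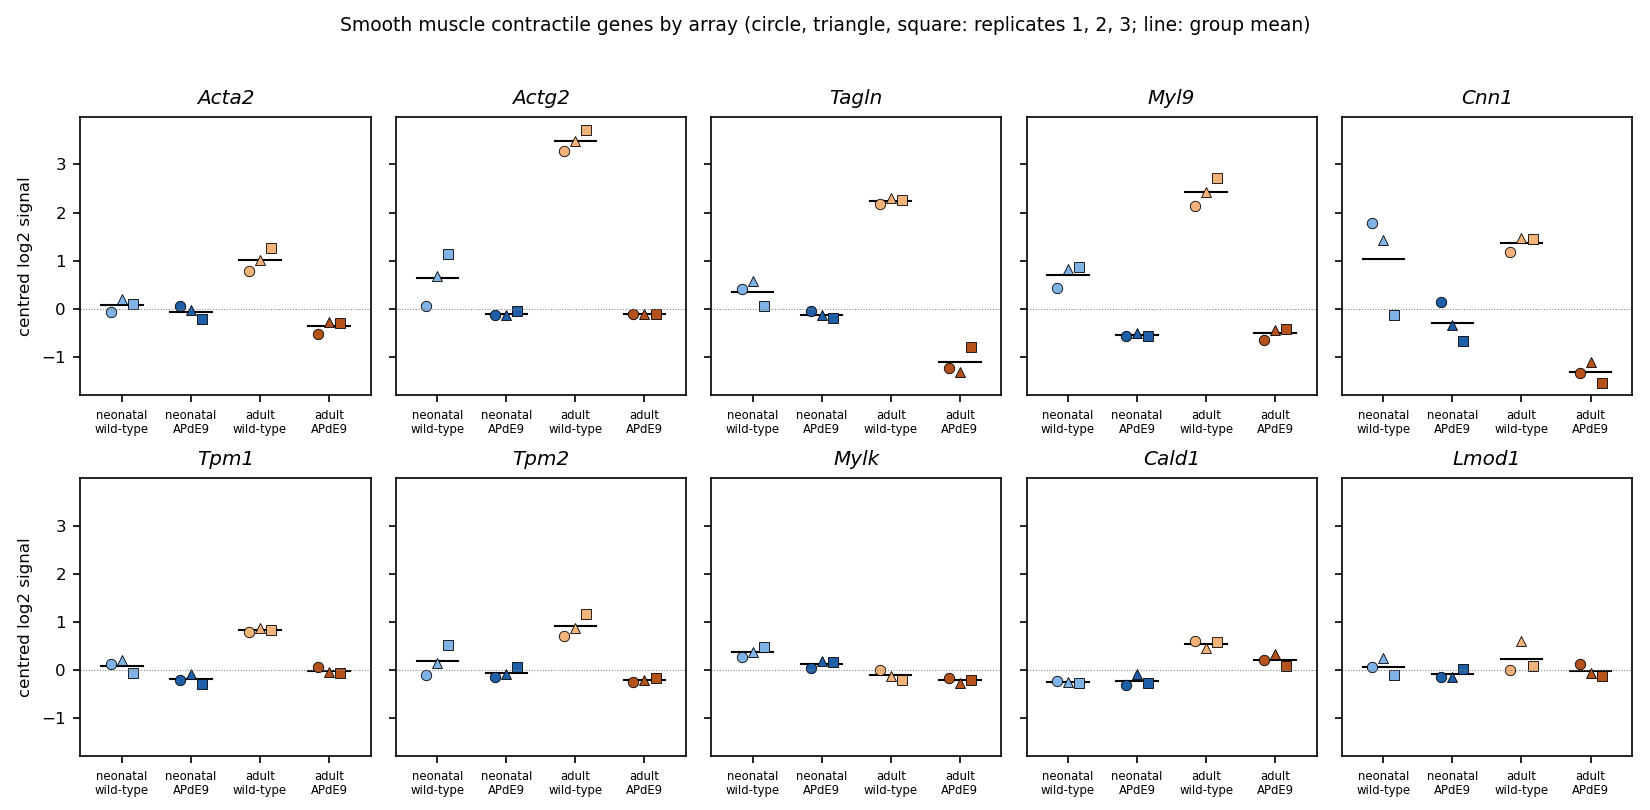
Centred log2 signal of each of the 10 genes on the 12 arrays. The horizontal axis gives the 4 groups, each symbol is 1 array and each line a group mean. In Actg2, Tagln and Myl9 the adult_WT arrays stand above all others, and in Mylk the neonatal_WT arrays do.

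In adult cells, 10 of 10 genes were lower on APdE9 than on wild-type sections. The groups did not overlap for 8 of the 10 genes, where 15.7% of all genes were lower without overlap. Since the genes were chosen with this contrast known, nothing is read from these counts. The median difference of the 10 genes was -1.25, and that of all genes 0.05, with 5th and 95th percentiles of -0.61 and 0.48.

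The actins come first. Actg2, the enteric smooth muscle gamma actin, stood at 3.28, 3.49 and 3.73 in adult_WT and at -0.11, -0.10 and -0.11 in adult_APdE9. The difference was -3.60 ± 0.21 (SE of the fit, n = 3 arrays a group), or 12.2-fold, the 5th lowest of all 18193 genes. The adult_APdE9 arrays lay within 0.0014 (SD) of each other, next to an SD of 0.22 in adult_WT. Acta2, the vascular smooth muscle alpha actin, read 0.79, 1.01 and 1.25 in adult_WT and -0.53, -0.27 and -0.30 in adult_APdE9. The groups were apart by -1.38 ± 0.13, or 2.61-fold, a smaller distance than that of Actg2.

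The calponin family holds the actin-binding proteins transgelin and calponin 1. Tagln, the gene of transgelin, was tightly placed at 2.19, 2.31 and 2.26 in adult_WT and at -1.24, -1.31 and -0.80 in adult_APdE9. The difference was -3.37 ± 0.15, or 10.3-fold, the 6th lowest. Cnn1, the gene of calponin 1, read 1.19, 1.47 and 1.44 in adult_WT and -1.34, -1.10 and -1.54 in adult_APdE9. It differed by -2.70 ± 0.38, or 6.48-fold, the 12th lowest.

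Of the myosin genes, Myl9, the regulatory light chain, had 2.13, 2.44 and 2.72 in adult_WT against -0.66, -0.45 and -0.43 in adult_APdE9, a difference of -2.94 ± 0.15, or 7.69-fold. Mylk, the kinase that phosphorylates this chain, did not follow it in the mean of its 3 probe sets. Its adult_WT arrays read -0.02, -0.13 and -0.21 and its adult_APdE9 arrays -0.16, -0.28 and -0.21. These overlapped, at -0.10 ± 0.08. Its probe set 1425506_at alone fell without overlap (-0.54 ± 0.12), and the others did not fall.

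The filament regulators were intermediate. Tpm2 lay at 0.70, 0.87 and 1.15 in adult_WT and -0.27, -0.21 and -0.18 in adult_APdE9 (-1.13 ± 0.15, or 2.18-fold). Tpm1 lay at 0.79, 0.86 and 0.83 against 0.06, -0.05 and -0.08 (-0.85 ± 0.09, or 1.80-fold). Both tropomyosin genes were separated without overlap. Cald1, caldesmon, read 0.60, 0.46 and 0.57 against 0.20, 0.32 and 0.07, a smaller separation of -0.34 ± 0.09. Lmod1, leiomodin 1, read -0.01, 0.59 and 0.08 against 0.12, -0.07 and -0.14 and overlapped, with 1 high adult_WT array (-0.25 ± 0.15).

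**Figure D2:**
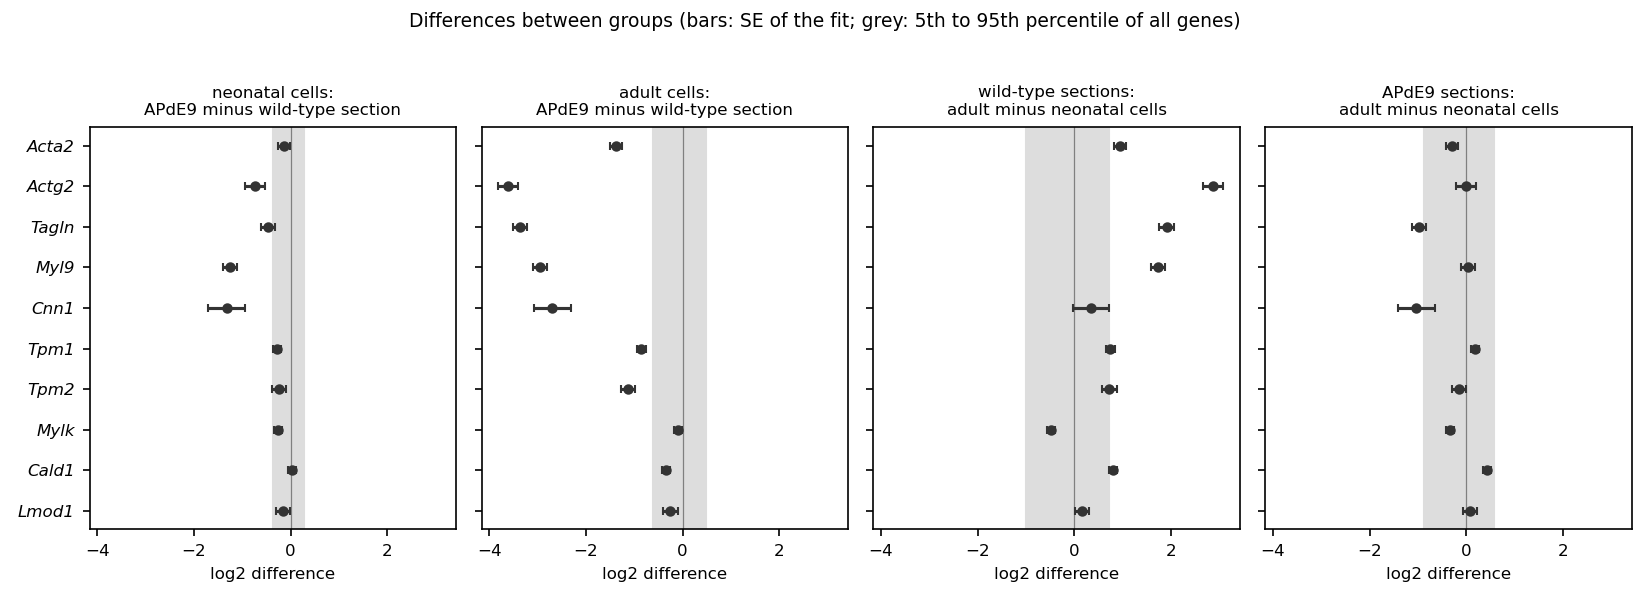
Log2 difference of each gene (horizontal axis) in the 4 comparisons, with the SE of the fit as bars. Grey bands span the 5th to 95th percentile of all 18193 genes. The 4 genes farthest below the band in adult cells are Actg2, Tagln, Myl9 and Cnn1, and Cnn1 and Myl9 are also the lowest in neonatal cells.

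In neonatal cells, Myl9 fell on APdE9 sections and was the 1 gene of the 10 called lower at an adjusted p under 0.05, where 2.55% of all genes were called lower. All differences here were tested with limma, without pairing of the arrays, and adjusted by Benjamini-Hochberg over all 18193 genes. The differences were negative for 9 of the 10 genes, as they were for 49.5% of all genes. The groups did not overlap for 5 of the 10, all lower, where 10.4% of all genes were lower without overlap. At an unadjusted p under 0.05, 6 of the 10 were lower, where 9.12% of all genes were. The median difference was -0.27, against 0.0018 over all genes.

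Myl9 read 0.43, 0.82 and 0.86 in neonatal_WT and -0.58, -0.50 and -0.57 in neonatal_APdE9. Every neonatal_APdE9 array lay below every neonatal_WT array, and the difference was -1.25 ± 0.15, or 2.39-fold (limma, adjusted p = 0.000861), the 16th lowest of all genes. With the replicate number as a block, the adjusted p of Myl9 in limma was 9.98e-05, and Myl9 passed in all 21 alternative settings, with adjusted p from 4.27e-05 to 0.00784. Mylk, its kinase, read 0.27, 0.37 and 0.48 in neonatal_WT and 0.02, 0.18 and 0.15 in neonatal_APdE9. Its groups did not overlap either, but its difference of -0.25 ± 0.08 did not pass (limma, adjusted p = 0.143).

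Cnn1 had the larger difference and also the larger spread: 1.78, 1.42 and -0.13 in neonatal_WT and 0.13, -0.34 and -0.67 in neonatal_APdE9. Replicate 3 of neonatal_WT lay below replicate 1 of neonatal_APdE9. The difference of -1.32 ± 0.38 gave an adjusted p of 0.0869 in limma, which became 0.0013 without neonatal_WT replicate 3 and 0.0277 under the replicate block. Tagln read 0.40, 0.58 and 0.06 in neonatal_WT and -0.06, -0.13 and -0.19 in neonatal_APdE9. Its groups did not overlap, at -0.47 ± 0.15 (limma, adjusted p = 0.111). Without neonatal_WT replicate 3, the lowest array of its group, the adjusted p of Tagln in limma was 0.0415.

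Of the actins, Actg2 read 0.05, 0.68 and 1.14 in neonatal_WT and -0.14, -0.13 and -0.05 in neonatal_APdE9. All 3 neonatal_APdE9 arrays lay lower, at -0.73 ± 0.21 (limma, adjusted p = 0.0816). The adjusted p of Actg2 in limma was 0.00302 without neonatal_WT replicate 1, its lowest array in that group, and 0.0245 with the replicate block. Acta2 read -0.08, 0.20 and 0.10 in neonatal_WT and 0.05, -0.02 and -0.22 in neonatal_APdE9, which overlapped (-0.14 ± 0.13, limma, adjusted p = 0.759).

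Among the filament regulators none passed. Tpm1 read 0.12, 0.20 and -0.07 against -0.22, -0.08 and -0.30, without overlap, at -0.29 ± 0.09 (limma, adjusted p = 0.114). Tpm2 overlapped at -0.24 ± 0.15 (limma, adjusted p = 0.541), with neonatal_WT replicate 3 at 0.52 and the other 5 arrays between -0.15 and 0.14. Lmod1 overlapped at -0.16 ± 0.15 (limma, adjusted p = 0.759). Cald1 was the 1 gene of the 10 with a positive difference, 0.03 ± 0.09 (limma, adjusted p = 0.958), from -0.23, -0.26 and -0.29 to -0.31, -0.10 and -0.29. With array weights, where 11.9% of all genes passed in either direction, 6 of the 10 genes did: Myl9, Actg2, Cnn1, Tagln, Tpm1 and Mylk.

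Age was compared on each kind of section, and both comparisons share their arrays with those above. On wild-type sections, 7 of the 10 genes were higher in adult than in neonatal cells without overlap, where 21.7% of all genes were. The exceptions were Cnn1 and Lmod1, which overlapped, and Mylk. The largest values were those of Actg2 (2.87 ± 0.21), Tagln (1.90 ± 0.15) and Myl9 (1.73 ± 0.15). Acta2 (0.94 ± 0.13), Cald1 (0.80 ± 0.09), Tpm1 (0.74 ± 0.09) and Tpm2 (0.72 ± 0.15) followed. Mylk was lower, at -0.49 ± 0.08, as were 20.3% of all genes without overlap.

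On APdE9 sections the same comparison looked different. Lower in adult cells without overlap were 5 of the 10 genes, where 16.4% of all genes were: Cnn1 (-1.03 ± 0.38), Tagln (-0.99 ± 0.15), Mylk (-0.34 ± 0.08), Acta2 (-0.30 ± 0.13) and Tpm2 (-0.16 ± 0.15). Higher without overlap were 2, where 20.8% of all genes were: Cald1 (0.43 ± 0.09) and Tpm1 (0.18 ± 0.09). Actg2 (-0.00089 ± 0.21), Myl9 (0.04 ± 0.15) and Lmod1 (0.07 ± 0.15) overlapped. Mylk was lower in adult cells on both kinds of section, and Cald1 and Tpm1 were higher on both. Acta2, Tagln and Tpm2 lay higher in adult cells on wild-type sections and lower on APdE9 sections. That opposition was not tested.

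The 5 genes with several probe sets were not read alike by all of them. Acta2 differed in adult cells by -2.61 at probe set 1416454_s_at and by -1.44 at 1444105_at, but by -0.10 at 1456658_at, so that the mean of the 3 understates the first. In Tpm1 the values ran from -1.66 at 1423049_a_at to -0.05 at 1447713_at, and in Tpm2 from -1.52 at 1425028_a_at to -0.31 at 1419739_at. In Cald1 they ran from -0.87 at 1424770_at to 0.13 at 1433146_at. In adult cells 16 of the 24 probe sets were lower without overlap, where 13.6% of all 45037 were, 7 overlapped, and 1 was higher. In neonatal cells Acta2 differed by -0.30 ± 0.11 at 1416454_s_at, without overlap, by 0.09 at 1444105_at and by -0.20 at 1456658_at. None of these passed (limma, adjusted p from 0.284 to 0.964 over all 45037 probe sets).

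The probe sets of Mylk differed among themselves in both neonatal and adult cells. Probe set 1425506_at read 0.79, 1.00 and 1.07 in neonatal_WT, 0.19, 0.04 and 0.38 in neonatal_APdE9, -0.07, -0.04 and -0.34 in adult_WT and -0.63, -0.84 and -0.60 in adult_APdE9. Its 4 groups did not overlap, and it fell in neonatal cells by 0.75 ± 0.12 on the log2 scale (limma, adjusted p = 0.00979 over 45037 probe sets). In adult cells its difference was -0.54 ± 0.12, given without a test. The other 2 Mylk probe sets differed by 0.06 and -0.07 in neonatal cells and by 0.18 and 0.06 in adult cells. Which Mylk transcripts each probe set reads was not analysed here. With that of Myl9, 2 of the 24 probe sets passed in neonatal cells, where 1.42% of all probe sets were called lower. The 5 probe sets with a positive difference did not pass, also at an unadjusted p under 0.05.

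**Figure D3:**
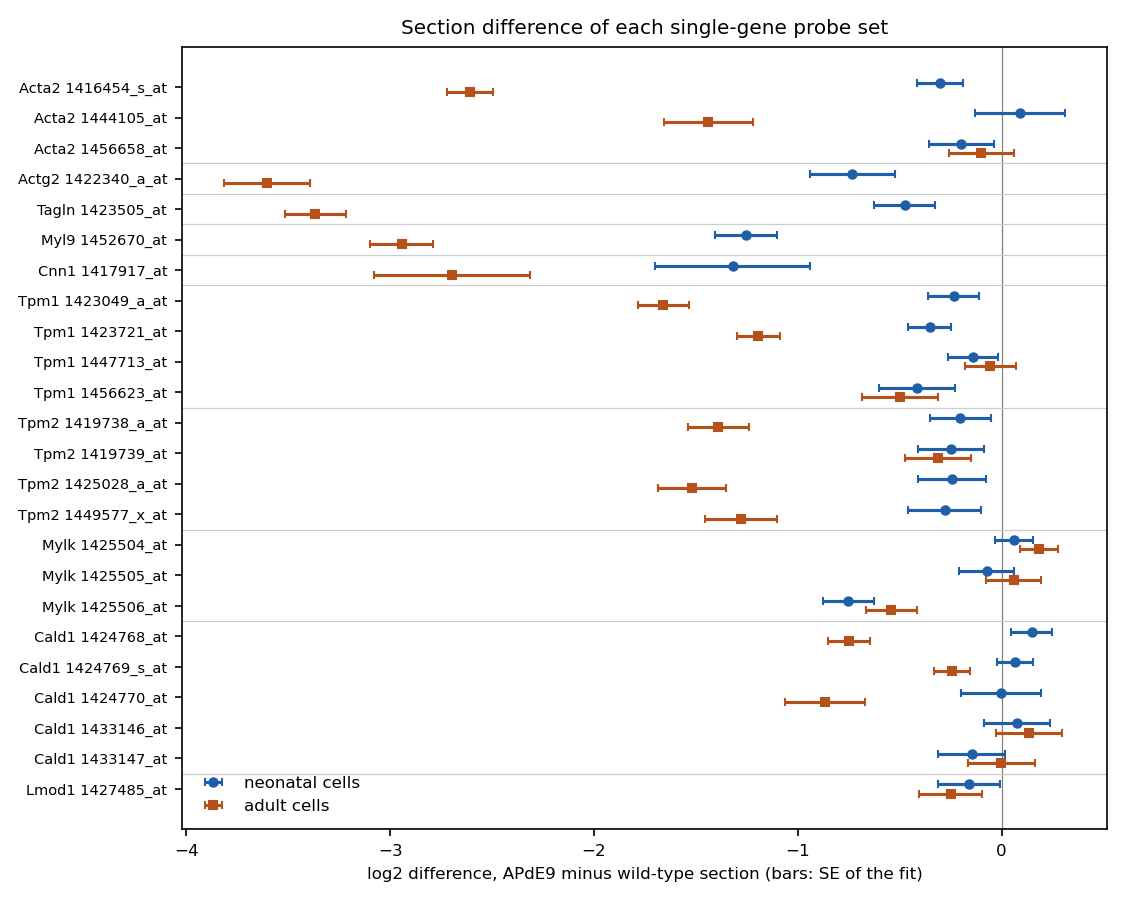
Log2 difference between APdE9 and wild-type sections (horizontal axis, bars give the SE of the fit) for each of the 24 probe sets, in neonatal (circles) and adult cells (squares). Probe sets of Acta2, Tpm1, Tpm2, Mylk and Cald1 differ among themselves, with adult values in Acta2 from -2.61 to -0.10.

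Over the 12 arrays the genes moved together in most pairs: the mean Pearson r of the 45 pairs was 0.55 and 38 were positive. This correlation holds the group differences on which the genes were chosen. With group means removed, the mean r was 0.032, the median -0.029, and 21 of 45 pairs were positive. Within groups the genes fell into pairs that went together and pairs that did not. Actg2 went with Tpm2 (r = 0.93) and Myl9 (0.78), Acta2 with Myl9 (0.87), and Cnn1 with Tpm1 (0.66). Cnn1 ran opposite to Mylk (-0.76), Actg2 (-0.74) and Tpm2 (-0.72). Averaged over the 4 groups, arrays of replicate number 3 deviated from their group means by 0.20 in Actg2 and 0.19 in Tpm2, but by -0.42 in Cnn1. That was not an even shift of all groups. In Cnn1 the SD was 1.02 in neonatal_WT, with replicate 3 at -0.13 and the others at 1.78 and 1.42. It was 0.40 in neonatal_APdE9, 0.16 in adult_WT and 0.22 in adult_APdE9. In Actg2 the SD was 0.55, 0.05, 0.22 and 0.0014 in the same order of groups. These points share arrays and pools. Each r rests on 12 arrays in 4 groups, and groups of wide spread weigh most in it.

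**Figure D4:**
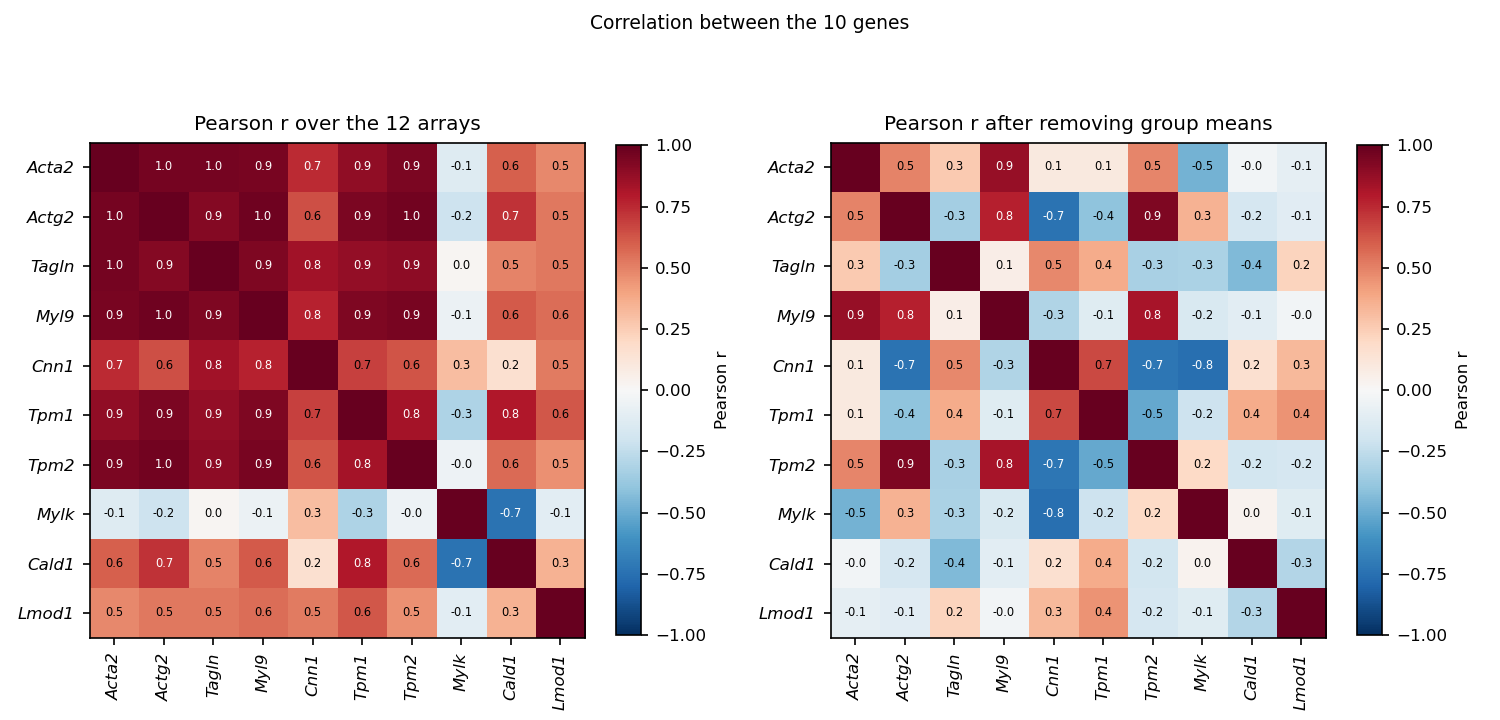
Pearson r between each pair of the 10 genes over the 12 arrays, before (left) and after (right) group means were removed. Colour and printed value give r; the mean over pairs is 0.55 on the left and 0.032 on the right.

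Against the mean of the 10 genes over the 12 arrays, Myl9 had the highest r (0.986), followed by Tagln (0.977), Acta2 (0.968) and Actg2 (0.963), and Mylk the lowest (-0.04). Each of the 10 is itself part of that mean, and genes with large differences weigh most in it. This r also holds the group differences on which the genes were chosen. Of the other 18183 genes, 128 had an r above 0.9, or 0.704%. The closest were Elobl and Cnn2 (both 0.986), Actg1 (0.982), Spats2l (0.979) and Nkain4 (0.975), with Adamts5 at 0.973. In adult cells Elobl differed by -3.80 ± 0.21, Nkain4 by -1.72 ± 0.13 and Adamts5 by -1.57 ± 0.11. Actg1, the cytoplasmic gamma actin, differed by less, at -0.33 ± 0.06. Since these genes were picked by r, their adult differences follow from the choice and are only a description.

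Other genes of the pathway were counted in lists by their known roles, each gene tested with limma. Of 22 other smooth muscle genes, 8 fell and 0 rose in adult cells on APdE9 sections at an adjusted p under 0.05, where 9.4% of all genes fell and 8.26% rose. At an unadjusted p under 0.05, 13 of the 22 were lower and 0 higher, a threshold for which no adult share of all genes is given here. The count that fell at the adjusted threshold was 7 to 9 with each array left out. Those that changed most were Nexn, a filament-binding nexilin (-1.42 ± 0.14, limma, adjusted p = 2.23e-05), Mrvi1, a target of cGMP-dependent kinase (-1.39 ± 0.17, limma, adjusted p = 0.000147), Lpp (-0.84 ± 0.12, limma, adjusted p = 0.000495) and Ldb3 (-0.81 ± 0.07, limma, adjusted p = 7.41e-06). The smooth muscle myosin heavy chain Myh11 (0.03 ± 0.08, limma, adjusted p = 0.835) and desmin, Des (0.07 ± 0.11, limma, adjusted p = 0.733), did not pass. They were singled out after their values were seen. In neonatal cells 2 of the 22 fell and 0 rose, where 2.55% of all genes fell and 1.21% rose. Those that fell were Synm, synemin (-0.79 ± 0.12, limma, adjusted p = 0.00347), and Synpo2, synaptopodin 2 (-0.67 ± 0.08, limma, adjusted p = 0.00097). With each array left out, 2 or 3 fell. At an unadjusted p under 0.05 in limma 6 of the 22 were lower and 0 higher, where 9.12% of all genes were lower.

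The non-muscle actin cytoskeleton held more of the lower genes: 14 of 23 fell in adult cells (10 to 14 with each array left out) and 1 rose. In that comparison 9.4% of all genes fell and 8.26% rose. The 1 of the 23 that rose lost its call without adult_WT replicate 2 or 3, or adult_APdE9 replicate 2 or 3, which leaves 0. The largest falls were those of Cnn2, a calponin of non-muscle cells (-2.16 ± 0.10, limma, adjusted p = 7.81e-08), the tropomyosin Tpm4 (-0.95 ± 0.08, limma, adjusted p = 1.07e-05), vinculin, Vcl (-0.91 ± 0.16, limma, adjusted p = 0.00218), and the non-muscle myosin Myh9 (-0.64 ± 0.09, limma, adjusted p = 0.000533). In neonatal cells 3 of 23 fell and 0 rose, where 2.55% of all genes fell and 1.21% rose. Among those that fell were Cnn2 (-0.71 ± 0.10, limma, adjusted p = 0.00249) and Tagln3 (-0.69 ± 0.09, limma, adjusted p = 0.00115). At an unadjusted p under 0.05 in limma, 5 of the 23 were lower and 0 higher, where 9.12% of all genes were lower. Cnn2 passed in both ages, and so did filamin A, Flna (-0.39 ± 0.08 in neonatal cells, limma, adjusted p = 0.0173, and -0.51 ± 0.08 in adult cells, limma, adjusted p = 0.0008). The neonatal call of Flna was lost without neonatal_WT replicate 2 or 3 or neonatal_APdE9 replicate 1 or 3, with adjusted p from 0.056 to 0.057 in limma. Cnn2 is also among the genes picked above by r, so its adult p-value is not an independent test. The median of the 23 was -0.37 in adult and -0.10 in neonatal cells.

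Of 14 genes of SRF and its cofactors, 3 fell and 1 rose in adult cells, where 9.4% of all genes fell and 8.26% rose. Without neonatal_WT replicate 3, 5 of the 14 fell. Tead1 fell (-0.62 ± 0.11, limma, adjusted p = 0.00152), as did Mical2, an actin oxidase that acts on the myocardin-related factors (-0.52 ± 0.10, limma, adjusted p = 0.00267). The largest fall was that of Klf4, a factor known to repress contractile genes (-1.19 ± 0.30, limma, adjusted p = 0.0157). Its call was lost without adult_WT replicate 2 (limma, adjusted p = 0.0735), without adult_APdE9 replicate 3 (0.0588) and after quantile normalization (0.0671). Srf itself (0.18 ± 0.22, limma, adjusted p = 0.646) and Myocd, myocardin (0.10 ± 0.10, limma, adjusted p = 0.515), did not pass, and both were singled out after their values were seen. In neonatal cells 1 of the 14 rose, Csrp2 (0.64 ± 0.09, limma, adjusted p = 0.00249), and 0 fell in limma. In that comparison 1.21% of all genes rose and 2.55% fell. At an unadjusted p under 0.05, 3 of the 14 were higher and 1 lower, where 9.12% of all genes were lower. The 1 that rose became 2 without neonatal_APdE9 replicate 1, and the 0 that fell became 1 without neonatal_WT replicate 1 or adult_APdE9 replicate 1. Csrp2 is also the gene of the list that rose in adult cells, at 0.32 ± 0.09 (limma, adjusted p = 0.0263), a call lost without any 1 of the 3 adult_WT arrays or without adult_APdE9 replicate 1 or 2.

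Of 14 TGF-beta signalling genes, 4 rose in adult cells, among them Tgfb3 (1.32 ± 0.14, limma, adjusted p = 4.4e-05), Tgfb2 (1.12 ± 0.09, limma, adjusted p = 4.83e-06) and the latent binding protein Ltbp1 (0.55 ± 0.09, limma, adjusted p = 0.00134). In that comparison 8.26% of all genes rose and 9.4% fell. The matricellular gene Ccn2 was 1 of 2 of the list that fell (-1.14 ± 0.14, limma, adjusted p = 0.000152). The lower count was 1 without adult_WT replicate 2, adult_WT replicate 3 or adult_APdE9 replicate 2. The striated muscle genes served as a contrast to the smooth muscle genes. Beside those shares of all genes, 3 of 26 fell and 1 rose in adult cells, with a median of 0.09. Of these Acta1, the skeletal muscle actin, fell by 0.89 ± 0.18 on the log2 scale (limma, adjusted p = 0.00491). The 3 became 1 without adult_WT replicate 2, adult_WT replicate 3 or adult_APdE9 replicate 1. The 1 that rose became 0 without adult_WT replicate 1 or 2 or adult_APdE9 replicate 2, and 2 without neonatal_APdE9 replicate 1.

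**Figure D5:**
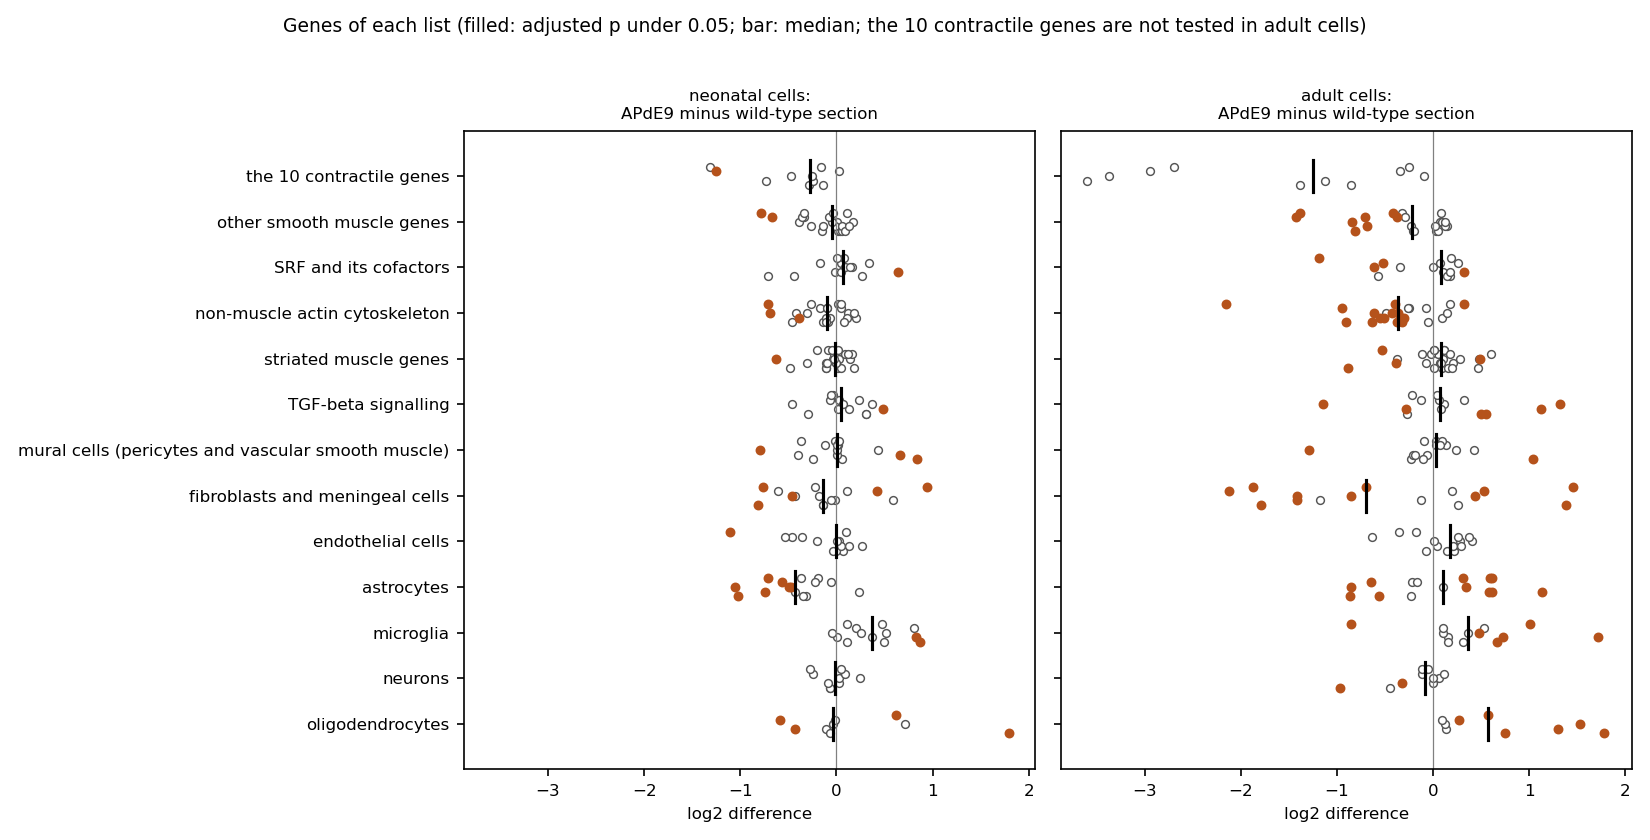
Log2 difference between APdE9 and wild-type sections (horizontal axis) of each measured gene of each list shown, in neonatal (left) and adult cells (right). Filled points passed an adjusted p under 0.05 and bars are medians; the 10 contractile genes are not tested in adult cells. In adult cells the medians are -1.25 for the 10 genes, -0.37 for the non-muscle actin cytoskeleton and -0.22 for other smooth muscle genes.

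Markers of cell types that make these proteins were read beside them. Of 15 markers of mural cells (pericytes and vascular smooth muscle), 1 rose and 1 fell in adult cells on APdE9 sections. In that comparison 8.26% of all genes rose and 9.4% fell. The mean of the 15 lay between -0.02 and 0.02 in adult_APdE9 and between -0.04 and 0.04 in adult_WT. Anpep rose (1.04 ± 0.15, limma, adjusted p = 0.000574) and Mcam fell (-1.29 ± 0.10, limma, adjusted p = 4.23e-06). The 1 that rose became 2 without neonatal_WT replicate 1. In neonatal cells 2 of the 15 rose, Rgs5 (0.66 ± 0.08, limma, adjusted p = 0.00106) and Anpep (0.84 ± 0.15, limma, adjusted p = 0.0105), and 1 fell, Mcam (-0.79 ± 0.10, limma, adjusted p = 0.00132), or 2 without neonatal_WT replicate 1. In neonatal cells 1.21% of all genes rose and 2.55% fell. The mean of the 15 markers lay between -0.05 and 0.04 in neonatal_APdE9 and between -0.05 and 0.0037 in neonatal_WT. The list shares Myh11 and Des with the other smooth muscle genes. Of 14 endothelial markers 0 passed in adult cells in limma, with 4 higher and 1 lower at an unadjusted p under 0.05. The adult share of all genes at that unadjusted threshold is not given here. With 1 array left out, at most 2 rose (without neonatal_WT replicate 1) and at most 1 fell (without adult_WT replicate 3 or adult_APdE9 replicate 1).

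Markers of fibroblasts and meningeal cells changed in both directions. Of 15, 7 fell and 4 rose in adult cells, where 9.4% of all genes fell and 8.26% rose. The median of the 15 was -0.70. The mean of the 15 lay between 0.03 and 0.23 in adult_APdE9 and between 0.58 and 0.60 in adult_WT. Fbln2 (-2.12 ± 0.32, limma, adjusted p = 0.000664), Thy1 (-1.88 ± 0.15, limma, adjusted p = 4.37e-06) and Col1a1 (-1.79 ± 0.16, limma, adjusted p = 1.33e-05) fell, and Igf2 rose (1.45 ± 0.18, limma, adjusted p = 0.000125). On wild-type sections 8 of the 15 were higher in adult than in neonatal cells and 3 lower, where 14.9% and 15.2% of all genes were, with Col1a1 at 4.06 ± 0.16 (limma, adjusted p = 2.02e-09). On APdE9 sections 5 were higher and 4 lower, where 11.7% and 11.9% of all genes were. Col1a1 (3.08 ± 0.16, limma, adjusted p = 3.4e-08) and Postn (2.95 ± 0.14, limma, adjusted p = 1.4e-08) were among those higher in adult cells. Dpt was among those lower (-2.21 ± 0.18, limma, adjusted p = 1.55e-06). In neonatal cells 3 fell and 2 rose on APdE9 sections, where 2.55% of all genes fell and 1.21% rose. The 3 became 1 without neonatal_WT replicate 2 or neonatal_APdE9 replicate 1, and the 2 became 1 without neonatal_WT replicate 1 or 2, neonatal_APdE9 replicate 2 or 3, any 1 of the adult_WT arrays, or adult_APdE9 replicate 2. The part of such cells in the contractile genes' values was not tested.

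Astrocyte markers changed as well: 7 of 15 fell and 0 rose in limma in neonatal cells on APdE9 sections, with a median of -0.43. In that comparison 2.55% of all genes fell and 1.21% rose. At an unadjusted p under 0.05, 11 of the 15 were lower and 0 higher, where 9.12% of all genes were lower. In adult cells 7 of the 15 rose and 4 fell, where 8.26% of all genes rose and 9.4% fell. Gfap fell in neonatal cells (-1.02 ± 0.11, limma, adjusted p = 0.000608), the same comparison in which Myl9 fell. On wild-type sections 12 of the 15 were lower in adult than in neonatal cells, Gfap by -4.24 ± 0.11 (limma, adjusted p = 7.05e-11), while 7 of the 10 contractile genes were higher. Of 13 microglial markers, 12 were lower in the same comparison, C1qc by -7.02 ± 0.21 (limma, adjusted p = 2.33e-10). Lower in that comparison were 15.2% of all genes. In the section comparison of adult cells 5 of the 13 rose and 1 fell, with Cd68 at 1.72 ± 0.18 (limma, adjusted p = 3.71e-05) and Tmem119 at -0.85 ± 0.13 (limma, adjusted p = 0.000545). The 5 became 2 without adult_WT replicate 2, and 3 without any 1 of the adult_APdE9 arrays. In that of neonatal cells Aif1 (0.87 ± 0.20, limma, adjusted p = 0.0334) and Cd68 (0.83 ± 0.18, limma, adjusted p = 0.0246) rose. These 2 became 4 without neonatal_WT replicate 1, 1 without adult_APdE9 replicate 2, and 0 without any 1 of the other 5 neonatal arrays. In the adult section comparison, 6 of 9 oligodendrocyte markers rose, where 8.26% of all genes did. Of 10 neuronal markers 2 fell, where 9.4% of all genes did. The 2 became 1 without adult_WT replicate 2 or 3 or adult_APdE9 replicate 1 or 2. Whether any marker was at background cannot be read from centred values, so the labelled cell type could not be checked against an absolute level. What part these markers had in the contractile genes' values was not tested.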

How the data were processed

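Per the submitters' processing notes, the authors computed signals with RMA (no version given). The deposited values were taken as log2 signals for all 12 arrays. The log base is not given in the sources used here. The deposited columns of the other 4 arrays count as a score here, since they hold 6 damaged values above 100 in size, apparently without their decimal point. Those were made missing and all else in these columns was read as log2. All 45095 probe sets without a missing value had a median of 0, so they had been centred, and no level over background could be had. Array medians lay between -0.039 and 0.034, and the number of arrays limits the precision.

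Of 45101 probe sets, 64 controls were left out. Of the 45037 others, the supplied annotation pairs 34945 with a single gene, 932 with several and 9160 with none. Mouse RefSeq names were matched for 34741. The single-gene probe sets of a gene were averaged. Means of the 4 groups were fitted for 18193 genes over all 12 arrays, using limma (version 3.58.1; R version 4.3.3; data.table package, version 1.17.8), with prior degrees of freedom of 3.97 and residual degrees of freedom of 8. Benjamini-Hochberg adjustment ran over all genes, with a threshold of 0.05. The script was tested on simulated data. Figures were drawn with matplotlib 3.10.9.

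The members and lists were chosen with earlier results of these data known. Named were all members and their probe sets, up to 4 called genes with the largest difference per list and comparison, and the 15 genes closest to the members' mean by Pearson r. One further list is not reported here, though its genes are among the counts over all lists in the closing section. Not all named genes are printed, and genes named beside the rule are said to be.

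The replicate numbers in the labels were checked as pairs by the correlation of deviations from group means over all genes. In neonatal cells it was 0.305, 0.147 and 0.519 for replicates 1, 2 and 3, each above 0.1, and in the age comparison on APdE9 sections 0.460, 0.206 and 0.473. These numbers were taken as pairs from the data, since the labels do not say what a number shares. The main fit did not use the pairs, and no paired fit of the neonatal arrays alone was made. In adult cells it was 0.348, -0.147 and 0.496, and in the age comparison on wild-type sections 0.404, 0.02 and 0.405. In both of these replicate 2 lay under 0.1, so the numbers were not taken as pairs there. The alternatives were quantile normalization, centring of arrays, array weights, the replicate block, a fit to 6 arrays, a filter on spread, restored decimal points, the median of probe sets, probe sets in place of genes, and leaving out each array.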

Additional observations from a re-analysis of the deposited data

Results flagged for a closer look

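In the age comparison, 3 of the 10 contractile genes lay higher in every adult than every neonatal array on wild-type sections and lower in every one on APdE9 sections, as did 1.07% of all 18193 genes. Acta2 differed by 0.94 on wild-type and -0.30 on APdE9 sections, Tagln by 1.90 and -0.99, and Tpm2 by 0.72 and -0.16. Both values rest on the adult arrays on which the genes were chosen. Of the related genes named in the section comparisons, Nexn did the same with 0.90 and -0.45, and Ldb3 with 0.74 and -0.10.

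In the section comparison, Mical2 and Tagln3 lay on opposite sides in the 2 ages, without overlap in either. Mical2 differed by 0.34 in neonatal and -0.52 in adult cells, and Tagln3 by -0.69 and 0.14. Of all genes, 1.17% were higher and then lower in this way, and 2.12% lower and then higher. Neither these oppositions nor those of the age comparison were tested. Taken singly, Mical2 in neonatal cells (limma, adjusted p = 0.0835) and Tagln3 in adult cells (limma, adjusted p = 0.299) did not pass. Mical2 in adult and Tagln3 in neonatal cells did.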

How the results depend on the processing

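In neonatal cells, 1 of the 10 genes passed. The count was 6 with array weights, 2 with probe sets in place of genes, and 1 to 3 with each array left out. It was 3 with the replicate block. That block took a common effect of each replicate number over all 4 groups, and is not a pairing of the neonatal arrays alone. Of the 205 measured genes of the other lists 31 passed, 65 with array weights, 17 in the fit to the 6 arrays compared, and 19 to 36 with each array left out. Of all genes 684 passed, 2160 with array weights, 272 in the fit to the 6 arrays, 1013 with the replicate block and 263 without neonatal_WT replicate 2. The mean difference of the 10 genes in adult cells was -1.67, with -1.58 after quantile normalization, -2.01 with probe sets in place of genes and -1.73 to -1.62 with each array left out. The mean age difference on wild-type sections was 0.97, with 0.88 under array weights, 1.16 with probe sets and 0.93 to 1.04 with each array left out, and on APdE9 sections -0.21, with -0.30 with probe sets and -0.23 to -0.20. The mean r within groups, 0.032, ran from -0.019 (without neonatal_WT replicate 2) to 0.099.

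Values near 0 changed sign, and ranges here are those with each array left out. Cald1 in neonatal cells was -0.0031 with probe sets and ran from -0.038 (without neonatal_APdE9 replicate 2) to 0.068. Mylk in adult cells was 0.14 by the median of probe sets. Myh11 in adult cells ran from -0.0013 (without adult_APdE9 replicate 2) to 0.084, with -0.00066 without adult_WT replicate 1. On wild-type sections the age difference of Cnn1 ran from -0.23 (without neonatal_WT replicate 3) to 0.72 and that of Lmod1 from -0.026 (without adult_WT replicate 2) to 0.28. On APdE9 sections it ran for Actg2 from -0.017 to 0.026 (without neonatal_APdE9 replicate 3), for Myl9 from -0.0057 (without adult_APdE9 replicate 3) to 0.11 and for Lmod1 from -0.0062 (without adult_APdE9 replicate 1) to 0.13. The cause was not tested. A filter on dim probe sets and another background correction could not be made from centred values.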
